A study of Rattus norvegicus with 46 samples.

Results

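Irradiated abdominal skin was compared with unirradiated skin 14 days after the end of treatment, both in Sprague-Dawley rats that had received only the vehicle DMSO. The comparison takes the 3 arrays labelled irradiated with DMSO (rats 322, 321 and 320, replicates 1, 2 and 3) against the 2 arrays labelled DMSO alone (rats 319 and 317, replicates 1 and 2), which is 5 of the 46 arrays of the series, over all 23188 features that are not controls. Irradiated rats received 40 Gy of 6 MeV electrons to the abdominal soft tissue in 4 fractions of 10 Gy over 8 days, with the dose falling to 2 Gy at a depth of 1 cm. Unirradiated rats had sham radiation. Both groups were injected with DMSO on days -7, -5, -3 and 0, so DMSO is shared. The labels give no age or sex of the animals. Skin was sampled as 5 mm punches, and the same 5 rats had also been biopsied on day 7. Rat 317 has arrays here from days 7 and 14 only, and the other 4 rats also from earlier days, so an equal history of biopsies is not shown. Rats 322, 321 and 319 also have an array from before any treatment (day -10, 6 baseline arrays in all). Each array is 1 animal, so the spread between replicates is between rats, with only 2 in the unirradiated group.

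Ionizing radiation breaks DNA in all skin compartments, and cells with lasting damage activate p53, stop dividing or die. Hair follicles in their growth phase and sebaceous glands are maintained by dividing cells and are known to be sensitive to it, while the epidermis responds with inflammation, desquamation and regrowth. Macrophages and lymphocytes enter irradiated skin, clear debris and release cytokines, matrix proteases and growth factors, and TGF-beta signalling is known for driving later fibrosis.

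Values are deposited log2 signals, with array medians of 6.84 to 6.95 over the series. They are listed in the order of replicates, irradiated 1, 2 and 3 and then unirradiated 1 and 2. The scale reaches 19.66 to 19.93 at its top, above what a 16-bit scanner gives before stretching, so differences are stated in log2 units of the deposited scale and not as folds. A difference is irradiated minus unirradiated with its standard error (SE) from a limma fit to all 46 arrays, and a feature was called at a Benjamini-Hochberg adjusted p under 0.05. A group with every array at or below the median of the array's negative controls (6.03 to 6.23 on these 5 arrays) gives only a bound, counted from that median and written "at least". Of the tested features, 8525 were at that background in both groups.

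On day 14, 1614 features were called (6.96% of those tested), of which 1027 were higher in irradiated skin (4.43%) and 587 lower (2.53%). The arrays of both groups did not overlap for 1493 of them (92.5%), against 25.1% of all tested features. The median difference over all tested features was 0.006. Among the called features 763 of the higher and 389 of the lower carried 1 gene symbol. In the plot of every tested feature, the largest negative differences exceed the largest positive ones in size.

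**Figure D1:**
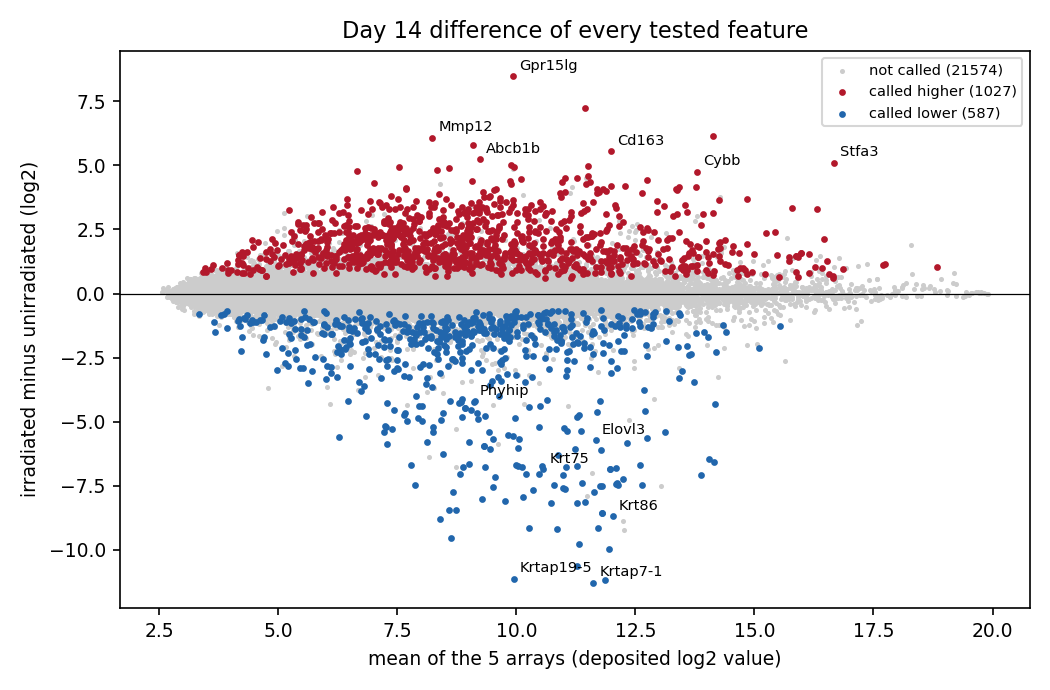
Difference between irradiated and unirradiated vehicle skin on day 14 (vertical axis, log2 units) against the mean of the 5 arrays (horizontal axis, deposited log2 value) for each of 23188 features, with called features in red (1027 higher) and blue (587 lower). Krtap7-1 lies lowest at -11.28 and Gpr15lg highest at 8.49 among the genes labelled.

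The 3 irradiated arrays differed widely among themselves. Replicate 1 correlated with unirradiated replicate 2 at r = 0.985 across features, above its 0.972 and 0.927 with irradiated replicates 2 and 3, as a description over features that share probes and scale. Replicate 3 stood farthest out: it was the highest irradiated array in 909 of the 1027 higher features (88.5%, against 35.1% of all features). In 890 of those 1027 replicate 1 was the lowest irradiated array. Replicate 1 was the highest irradiated array, and so nearest to unirradiated skin, in 491 of the 587 lower ones (83.6%, against 34.7%). Spike-in control features part the arrays of the series into 3 sets, which were inferred from those signals, since the labels name no batch. Irradiated replicate 1 lies in spike-in set II and the other 4 arrays in set III, within which 1623 features were called, 1225 of them called with the same sign over all arrays. Leaving out irradiated replicate 1, 2 or 3 gave 2962, 1414 and 351 calls, and leaving out unirradiated replicate 1 or 2 gave 98 and 1198. A lone remaining unirradiated array is then assumed to vary like the other groups. Fitted on the 5 arrays alone, without the spread of the other groups, limma called no feature, with 1517 at an unadjusted p under 0.05. The calls therefore rest on a spread estimated over all groups of the series, and not on these 5 rats alone. For Cd163 the irradiated arrays had a standard deviation of 3.72 beside an SE of 1.10. For Ccl21 they had 0.45 beside 0.57. An SE given here can therefore understate the spread among the irradiated rats. A set of 75 features (60 higher, 15 lower) was called in all 5 of these fits as well as over all arrays.

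**Figure D2:**
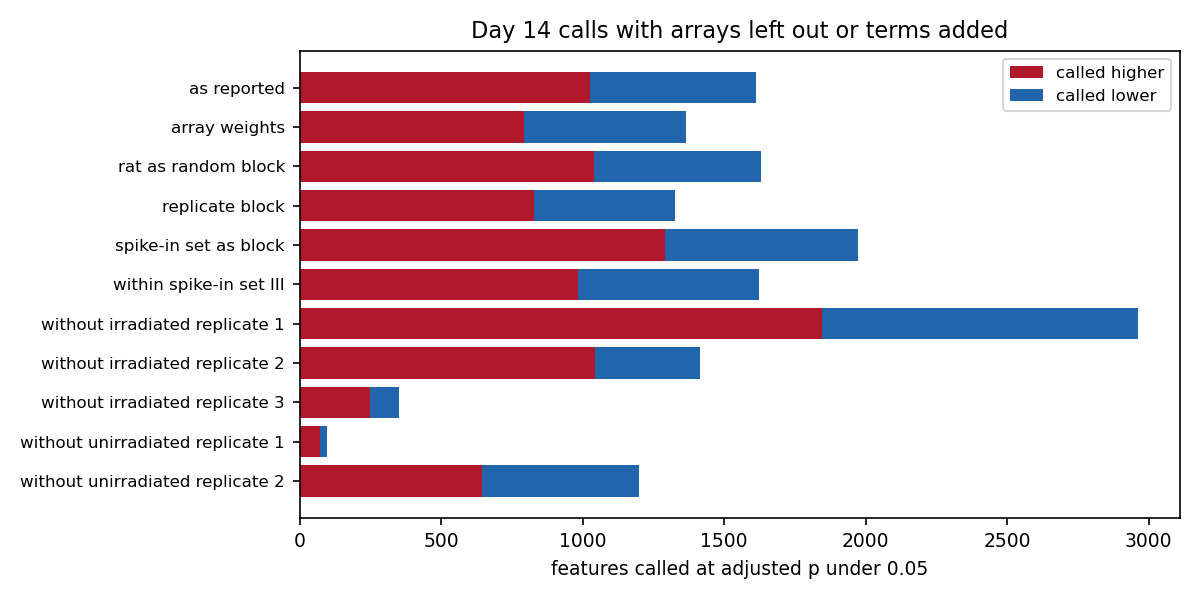
Number of features called on day 14 (horizontal axis) over all arrays, with array weights, with blocks for rat, replicate number or spike-in set, within set III, and with each of the 5 arrays left out. Bars are split into features called higher (red) and lower (blue) in irradiated skin, and they range from 98 calls without unirradiated replicate 1 to 2962 without irradiated replicate 1.

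The labelled tissue carried its defining transcripts in all 5 arrays. Krt14, a keratin of basal keratinocytes, lay between 16.86 and 18.64, and Col1a1, the main collagen chain of the dermis, between 18.57 and 19.14. Skeletal muscle transcripts were abundant too, at list means of 15.72, 15.44 and 12.33 in irradiated and 12.14 and 16.73 in unirradiated arrays. The muscle means of the groups overlapped, and both irradiated replicate 3 and unirradiated replicate 1 were low. In whole biopsies, fewer cells of a type and less RNA per cell cannot be told apart.

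The largest negative differences were in hair genes. Of 16 measured genes of the hair shaft list, 9 were called lower and none higher, with a median difference of -7.13. Keratin-associated proteins, which cross-link the keratin filaments of the hair cortex and are not on that list, led all lower features: Krtap7-1 read 12.44, 4.50 and 4.36 in irradiated skin and 19.68 and 17.09 in unirradiated skin. Its difference was -11.28 ± 2.74 with an adjusted p of 0.0101. Irradiated replicates 2 and 3 were at or below the negative controls, replicate 1 lay between them and the unirradiated arrays, and the groups did not overlap. Krtap19-5 read 8.44, 3.96 and 4.07 against 18.60 and 14.65 (-11.13 ± 1.99, adjusted p 0.00092). Krtap1-5 gave 10.46, 6.19 and 5.56 against 19.19 and 15.15 (-9.77 ± 1.82, adjusted p 0.00121). For Krtap31-1 every irradiated array was at background, so that it fell by at least 7.51 log2 units (adjusted p 0.00992).

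Type II hair keratins fell with them. Krt86 measured 12.57, 6.98 and 6.09 in irradiated and 19.002 and 15.49 in unirradiated skin (-8.70 ± 2.09, adjusted p 0.00949). Krt85 measured 13.77, 6.21 and 5.62 and 17.80 and 14.80 (-7.76 ± 2.14, adjusted p 0.0228). Again replicate 1 was closest to unirradiated skin and replicates 2 and 3 were low, with no overlap. Krt81, of the same type, and the type I hair keratin Krt35 had differences of -7.43 ± 1.68 and -7.95 ± 2.31 (adjusted p 0.00608 and 0.0308), and Krt82, Krt84 and Krt36 were called lower as well. Also lower were Dsg4, a desmosomal cadherin of the hair shaft that is not on the list (-7.57 ± 1.97), the calcium-binding hair cuticle protein S100a3 (-7.23 ± 2.27) and Padi3, which citrullinates hair proteins (-4.56 ± 1.36). The 7 members that did not pass were the inner root sheath keratins Krt25, Krt26, Krt27, Krt28, Krt71, Krt72 and Krt73, with differences from -8.88 to -5.87. Keratins and keratin-associated proteins form families of near-identical genes, and whether their probes share signal was not tested.

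Hair shaft list means were 12.10, 5.63 and 5.11 in the irradiated arrays and 15.96 and 12.75 in the unirradiated ones. Baseline arrays lay between 14.76 and 15.85 except that of rat 321, later irradiated replicate 2, at 11.40. Called hair shaft members numbered 16, 4 and 0 without irradiated replicates 1, 2 and 3, and 0 and 7 without unirradiated replicates 1 and 2. Within spike-in set III, which also lacks irradiated replicate 1, 14 were called. The unirradiated arrays themselves were low on day 7, where Krtap7-1 read 7.33 and 5.11 and Krt86 7.04 and 5.78, close to the irradiated values of that day (4.67, 4.89 and 3.69 and 6.22, 5.87 and 5.64). The day 7 median difference of the list was -0.77, and neither gene passed that day (adjusted p 0.8 and 0.939). The hair shaft panel of list means by day shows that unirradiated skin was low on day 7 and high on day 14, while irradiated replicates 2 and 3 were low on both days. Irradiated replicate 1 rose from 5.22 on day 7 to 12.10 on day 14. Unirradiated replicates 1 and 2 rose likewise, from 7.30 to 15.96 and from 5.40 to 12.75.

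Regulators of the follicle were lower as well. In the list of follicle stem and signalling genes, 6 of 18 measured members were called lower and none higher (median -1.74). Krt75, a keratin of the companion layer, read 12.18, 5.08 and 6.23 in irradiated skin against 15.81 and 13.54 in unirradiated skin (-6.84 ± 1.44, adjusted p 0.00374). Lef1, the transcription factor through which Wnt signals act in the hair matrix, read 9.85, 6.37 and 5.24 against 12.83 and 9.93 (-4.23 ± 1.32, adjusted p 0.0448). Irradiated replicate 1 again lay nearest to unirradiated skin for both, and for Lef1 it was almost as high as unirradiated replicate 2.

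Lhx2, a transcription factor of follicle stem cells, and the hair matrix homeobox gene Msx2 were lower, at -3.997 ± 1.001 and -4.12 ± 1.21 (adjusted p 0.0126 and 0.0334). Foxc1, which keeps follicle stem cells quiescent, read 8.37, 7.65 and 7.76 against 9.79 and 9.37 (-1.65 ± 0.30, adjusted p 0.000975) without overlap. Wnt10b was called lower too, but both groups were at background. Lgr5, a stem cell receptor, and Shh, a follicle morphogen, did not pass, with differences of -2.63 and -1.83. Called follicle members numbered 11, 3 and 2 without irradiated replicates 1, 2 and 3, and 0 and 5 without unirradiated replicates 1 and 2.

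**Figure D3:**
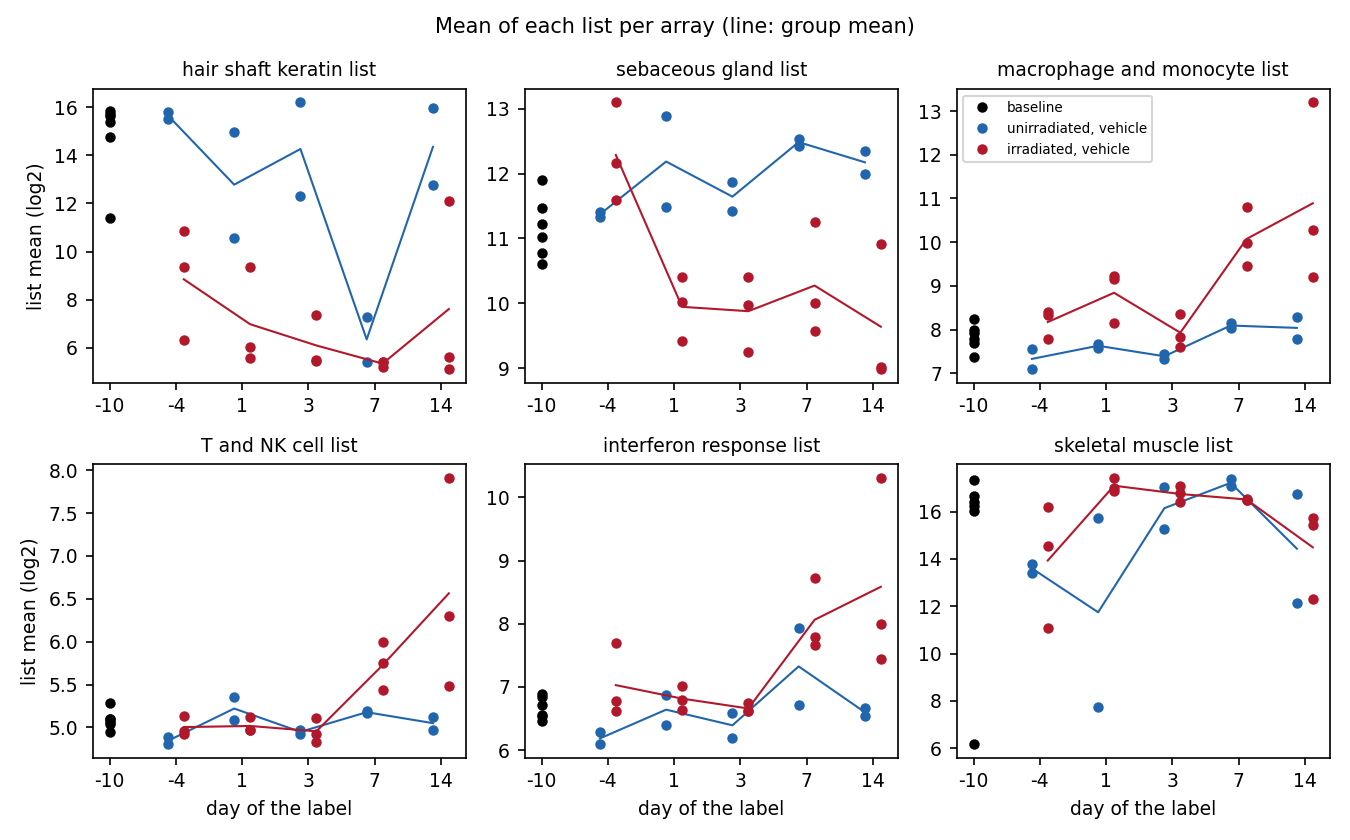
Mean deposited log2 value of 6 gene lists (vertical axis) per array on each labelled day (horizontal axis, not to scale), with baseline arrays in black, unirradiated vehicle in blue and irradiated vehicle in red. Lines join group means, and unirradiated replicate 2 is another rat on days 7 and 14 than before. On day 14 irradiated replicate 3 is highest in the macrophage, T and NK cell and interferon panels (13.20, 7.91 and 10.31).

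Sebaceous glands secrete a lipid-rich sebum made of wax esters, triglycerides and fatty acid derivatives. Their list had 6 of 16 measured members called lower and none higher, with a median difference of -2.26. Elovl3, which elongates fatty acids for sebum, read 13.26, 8.01 and 6.85 in irradiated and 15.21 and 15.01 in unirradiated skin (-5.74 ± 1.48, adjusted p 0.0153). Awat2, a wax ester synthase, read 12.08, 7.46 and 7.13 against 13.66 and 14.64 (-5.26 ± 1.41, adjusted p 0.0192). Irradiated replicates 2 and 3 were far below every unirradiated array for both genes, and replicate 1 was below them by less.

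The related enzyme Awat1, the stearoyl-CoA desaturase Scd and the lipid droplet protein Cidea were lower, at -4.40 ± 1.27, -3.44 ± 0.88 and -2.998 ± 0.84 (adjusted p 0.0295, 0.0144 and 0.024). Mc5r, a melanocortin receptor of sebocytes, was lower too (-2.77 ± 0.66). Fasn, the fatty acid synthase, and Pparg, a regulator of lipid cells, had differences of -2.51 and -0.84 and did not pass. Sebaceous list means were 10.92, 9.02 and 8.99 against 11.999 and 12.35, with no overlap, and 10.60 to 11.90 at baseline. Called sebaceous members numbered 10, 3 and 0 without irradiated replicates 1, 2 and 3, and 0 and 0 without unirradiated replicates 1 and 2, while 10 were called within spike-in set III.

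Sterol and fatty acid synthesis, which supplies both sebum and the epidermal barrier, had 4 of 17 measured members called lower and none higher (median -1.11). Besides Scd these were Elovl6, a fatty acid elongase, at -2.95 ± 0.78 (adjusted p 0.0174), and the sterol enzymes Lss and Fdft1 at -1.62 ± 0.45 and -1.17 ± 0.35 (adjusted p 0.0231 and 0.0359). Elovl6 read 10.62, 9.97 and 7.91 in irradiated skin and 12.76 and 12.14 in unirradiated skin, so that every irradiated array was lower. Called members of that list numbered 8, 2 and 0 without irradiated replicates 1, 2 and 3, and 0 and 3 without unirradiated replicates 1 and 2. Of 13 measured adipocyte genes, Fabp4, the fatty acid carrier of fat cells, and Lipe, the hormone-sensitive lipase, were lower (-2.30 ± 0.61 and -1.42 ± 0.43) and Cfd, the complement factor adipsin, was higher (1.34 ± 0.41). Fabp4 read 15.42, 12.97 and 11.43 in irradiated skin and 16.45 and 14.71 in unirradiated skin, with irradiated replicate 1 above unirradiated replicate 2. Adipoq and Lep, which code for fat cell hormones, did not pass (-1.05 and -1.18). Called adipocyte members numbered 7, 0 and 0 without irradiated replicates 1, 2 and 3, and 0 and 1 without unirradiated replicates 1 and 2.

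Gpr15lg, a ligand of the receptor GPR15 that is made by epithelia, showed the largest positive difference of any named gene. It read 11.41, 14.01 and 14.54 in the irradiated arrays, while both unirradiated arrays were at background (4.93 and 4.73). Irradiated skin was therefore at least 7.22 log2 units higher (fitted difference 8.49 ± 1.07, adjusted p 3.56e-05). All 3 irradiated arrays lay far above the baseline range of 3.99 to 5.59.

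Klk9, a kallikrein serine protease, read 11.30, 13.92 and 14.03 against 9.37 and 7.73 (4.53 ± 0.70, adjusted p 0.000379). Wfdc18, a small protein with a whey acidic protein domain, read 10.73, 14.55 and 8.96 against 6.29 and 4.91 (5.81 ± 1.10, adjusted p 0.00144). Stfa3, a cysteine protease inhibitor of the stefin A family, read 18.53, 19.68 and 17.95 against 15.15 and 12.06 (5.11 ± 1.14, adjusted p 0.00538). None of these genes overlapped between groups, and for Wfdc18 and Stfa3 replicate 2 was the highest irradiated array rather than replicate 3. Gpr15lg, Wfdc18 and Klk9 were called in all 5 fits that left out 1 array, and Stfa3 in 4. Stfa3 was above its own baseline also in unirradiated rat 319, by 5.78, against 7.65 and 8.85 in irradiated rats 322 and 321.

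Of 19 measured genes of wounded or stressed keratinocytes, 3 were called higher and none lower, at a median of 1.83. Tmprss11d, a membrane-bound serine protease of stratified epithelia, read 5.88, 8.69 and 8.06 in irradiated skin, with both unirradiated arrays at background, and was at least 1.44 higher (adjusted p 0.000248). Irradiated replicate 1 was itself at background. Il36b, an interleukin of the IL-36 family made by keratinocytes, read 11.26, 13.81 and 9.16 against 7.86 and 8.79 (3.09 ± 0.78, adjusted p 0.0134). Ereg, the EGF receptor ligand epiregulin, read 9.62, 11.64 and 10.73 against 8.84 and 8.61 (1.94 ± 0.52, adjusted p 0.0194). In these 3 genes irradiated replicate 2 was the highest array.

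S100a8, an antimicrobial protein of activated keratinocytes and neutrophils, did not pass, and its groups overlapped at 9.10, 11.06 and 14.90 and 9.35 and 6.34 (3.84 ± 1.45, adjusted p 0.111). Lcn2 and S100a9, of the same response, had differences of 4.87 and 4.15 and did not pass either. On day 7, 12 of the 19 members were called higher (2.69% of all features were, and 1.33% lower). Called wound members of day 14 numbered 12, 3 and 2 without irradiated replicates 1, 2 and 3, and 1 and 3 without unirradiated replicates 1 and 2.

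Krt14 was called higher in irradiated skin, at 17.60, 18.40 and 18.64 against 16.86 and 17.24 (1.16 ± 0.31, adjusted p 0.0199), without overlap. Itgb1, the integrin beta chain that anchors basal cells, was the other called member of 7 measured basal keratinocyte genes (0.76 ± 0.23). Krt15, a keratin of resting basal and follicle stem cells, and Tp63 had differences of -2.63 and -1.31 and did not pass. Called basal members numbered 4, 2 and 0 without irradiated replicates 1, 2 and 3, and 0 and 2 without unirradiated replicates 1 and 2. Among 12 measured genes of the suprabasal and cornified layers, only Tgm3, a transglutaminase that cross-links the cornified envelope, was called (15.61, 17.12 and 15.86 against 14.25 and 13.43, 2.35 ± 0.65, adjusted p 0.0234). Krt1, the main suprabasal keratin on the list, had a difference of 0.32. Calls in this direction made up 4.43% of all features. Of 16 barrier lipid genes only Ugcg, the glucosylceramide synthase, was called (2.07 ± 0.41, adjusted p 0.00198), and it was called in each fit that left out 1 array.

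Tight junctions seal the granular layer, and 4 of their genes made up all the calls among 10 measured junction genes. Cldn1, a claudin needed for the water barrier, read 14.02, 13.63 and 10.51 in irradiated skin against 15.17 and 15.01 in unirradiated skin (-2.37 ± 0.53, adjusted p 0.00575). Every irradiated array was lower, and replicate 3 was lowest. Cldn4 (-1.87 ± 0.56), occludin Ocln (-1.67 ± 0.43) and the scaffold Tjp1 (-0.96 ± 0.30) were lower without overlap. Marveld2, the tricellular junction protein tricellulin, is not on the list and was chosen after its values were seen. It read 8.61, 8.02 and 6.24 against 9.77 and 10.001 (-2.27 ± 0.41, adjusted p 0.00101) and was called in all 5 fits without 1 array. Desmosome genes Dsg3, Dsc3, Jup and Perp had differences from -0.082 to 0.60 and did not pass. The remaining measured desmosome members did not pass either but were lower than these, as the list median of -0.85 requires. Called junction members numbered 3, 4 and 0 without irradiated replicates 1, 2 and 3, and 0 and 4 without unirradiated replicates 1 and 2. The epithelial adhesion molecule Epcam was also lower (11.97, 10.94 and 8.31 against 12.63 and 12.11, -1.97 ± 0.54).

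**Figure D4:**
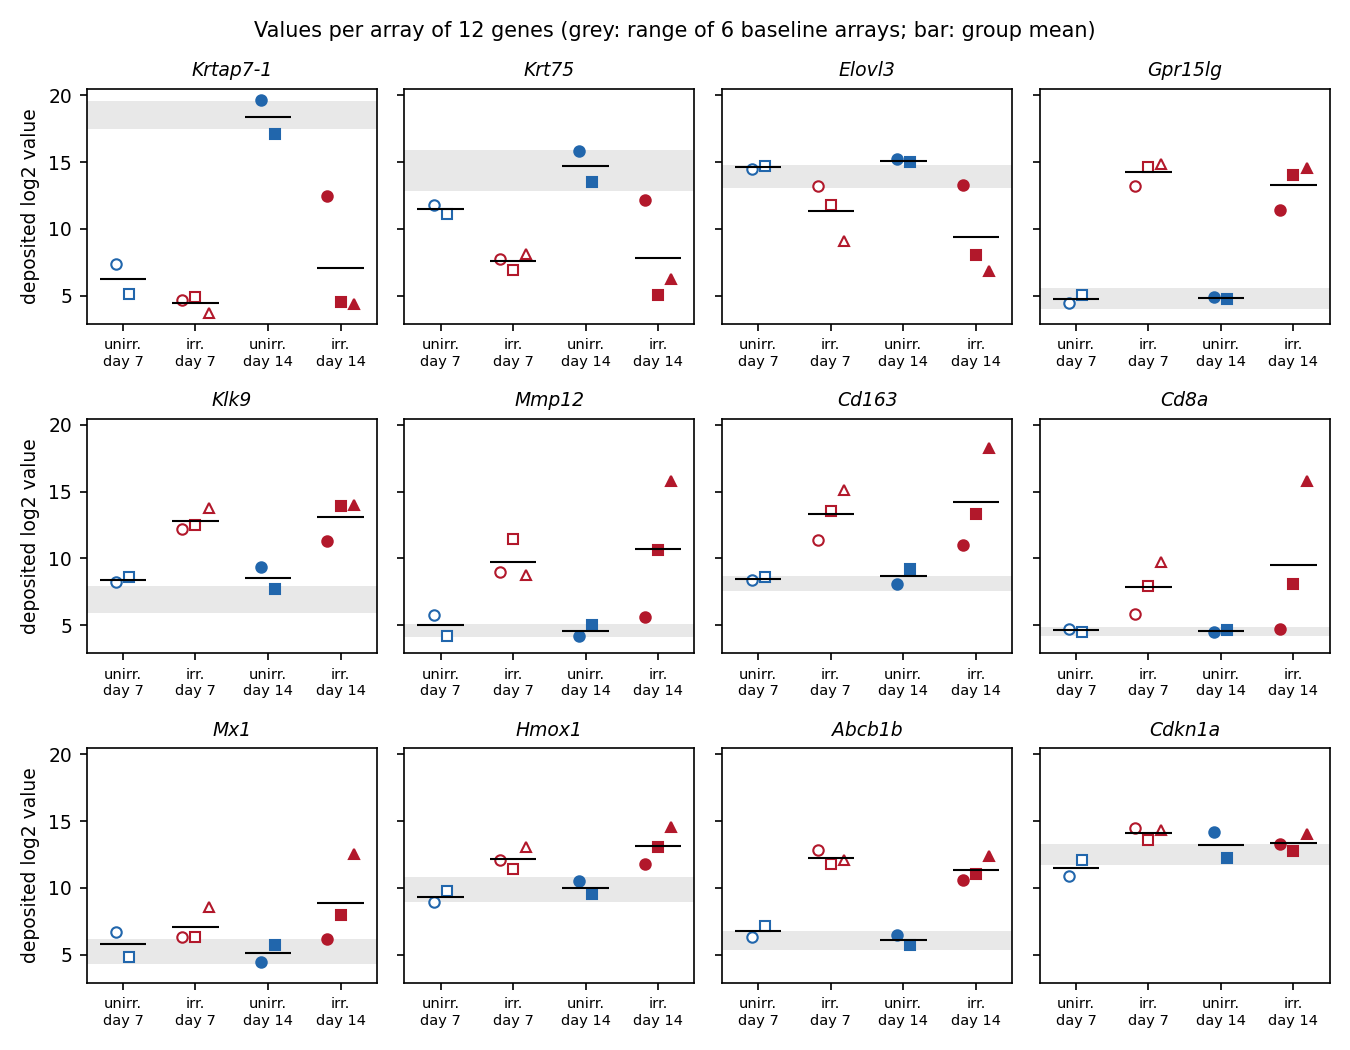
Deposited log2 values (vertical axis) of 12 genes in unirradiated (blue) and irradiated (red) vehicle skin on day 7 (open symbols) and day 14 (filled), with replicates 1, 2 and 3 as circle, square and triangle, the group mean as a bar and the range of the 6 baseline arrays in grey. Gpr15lg and Abcb1b separate the groups on both days, Krtap7-1 is far apart between them on day 14 but close on day 7, and Cdkn1a separates them on day 7 but not on day 14.

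Macrophage transcripts rose across most of their list. Of 25 measured genes of macrophages and monocytes 19 were called higher and none lower, with a median difference of 3.24. Cd163, a scavenger receptor for haemoglobin on tissue macrophages, read 11.03, 13.30 and 18.29 in irradiated and 8.08 and 9.22 in unirradiated skin (5.56 ± 1.10, adjusted p 0.00226). Cybb, the catalytic subunit of the phagocyte NADPH oxidase, read 13.58, 15.35 and 18.15 against 10.67 and 11.20 (4.76 ± 0.77, adjusted p 0.000512). The order was the same for both, with irradiated replicate 3 highest, then 2, then 1, and all above both unirradiated arrays.

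Tyrobp, an adaptor of activating receptors on myeloid cells, read 9.81, 11.63 and 13.35 against 6.60 and 8.04 (4.28 ± 0.69, adjusted p 0.000512). C1qb, a chain of complement C1q made by macrophages, read 11.77, 13.08 and 17.03 against 9.32 and 10.20 (4.20 ± 0.88, adjusted p 0.0034). Fcgr1a, a high-affinity receptor for IgG, read 9.06, 10.35 and 14.25 against 6.64 and 7.62 (4.09 ± 0.82, adjusted p 0.00255). Other called members ranged from Mrc1, the mannose receptor, at 4.06 ± 0.82 to Clec4e, a receptor for damaged cells, at 1.66 ± 0.48, and included Cd68, Ccr2, Lyz2, Cd14, Msr1, Adgre1, Itgam and Csf1r. Arg1, an arginase of wound macrophages, and Gpnmb did not pass (0.67 and -1.08), and Marco and Trem2 were at background in both groups.

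Macrophage list means were 9.20, 10.28 and 13.20 in irradiated arrays and 7.80 and 8.29 in unirradiated ones, against 7.38 to 8.25 at baseline, so that every irradiated array exceeded every other array named here. Called macrophage members numbered 21, 21 and 12 without irradiated replicates 1, 2 and 3, and 1 and 17 without unirradiated replicates 1 and 2. Receptors of myeloid cells outside the list behaved alike and were called in each fit that left out 1 array: Clec4a3 (4.99 ± 0.74), Fcgr2b (4.93 ± 0.82), Clec10a (4.30 ± 0.63) and Fcer1g (4.15 ± 0.68), of which the last was chosen after its values were seen, as was Clec10a. Tlr7, a receptor for single-stranded RNA, read 7.74, 9.72 and 13.35 against 4.53 and 6.35 (4.83 ± 0.80, adjusted p 0.000556), and the lysosomal protease Ctss read 11.20, 12.23 and 15.04 against 7.40 and 9.24 (4.50 ± 0.71, adjusted p 0.000495).

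Lymphocyte transcripts were higher at lower levels. Of 20 measured T and NK cell genes 11 were called higher and none lower (median 1.23), while 10 were at background in both groups, among them the CD3 chains Cd3e and Cd3d, the granzyme Gzmb and Ifng. Cd3g was called although all its arrays were at background. Cd8a, the coreceptor of cytotoxic T cells, read 4.70, 8.06 and 15.77 with both unirradiated arrays at background, and was at least 3.41 higher (adjusted p 0.0255). Only irradiated replicates 2 and 3 stood clearly above, since replicate 1 was itself at background. Cd2, an adhesion molecule of T and NK cells, read 8.45, 9.99 and 10.58 against 7.25 and 7.76 (2.17 ± 0.37, adjusted p 0.000575), without overlap. Cd4 read 12.93, 14.27 and 17.57 against 10.66 and 12.30 (3.44 ± 0.97), and rat macrophages express it too. Il2rb, a chain of the receptors for IL-2 and IL-15, was at least 1.48 higher (adjusted p 0.0135).

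T and NK cell list means were 5.48, 6.29 and 7.91 against 4.97 and 5.13. Called T and NK members numbered 14, 11 and 1 without irradiated replicates 1, 2 and 3, and 0 and 4 without unirradiated replicates 1 and 2. Klrc3 and Klrc1, inhibitory or activating receptors of the NKG2 family, and Icos, a costimulator of T cells, were chosen after their values were seen. They were at least 3.23, 1.95 and 2.59 higher and were called in all fits without 1 array.

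Of 12 measured Langerhans and dendritic cell genes 6 were called higher and 1, Epcam, lower. Cd86 and Cd80, costimulators of antigen-presenting cells, were at least 1.83 and 1.72 higher (adjusted p 0.00186 and 0.0155), with Cd86 at 6.87, 8.06 and 8.88 in irradiated skin. Xcr1, a receptor of cross-presenting dendritic cells, was called (adjusted p 0.0102), but only irradiated replicate 2 was above background, at 5.36, 7.18 and 4.64 against 3.83 and 3.67. Irf8, a transcription factor of that lineage, was higher by 1.46. Itgae was called with every array at background. Called Langerhans and dendritic members numbered 8, 4 and 3 without irradiated replicates 1, 2 and 3, and 0 and 3 without unirradiated replicates 1 and 2.

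Neutrophil genes gave 4 calls of 17 measured, all higher. Csf3r, the receptor for the granulocyte growth factor G-CSF, read 5.01, 6.45 and 11.97 with unirradiated arrays at background, and was at least 1.71 higher (adjusted p 0.0326). Replicate 3 alone lay far above the rest. Cxcr2, a chemokine receptor, and Trem1, an amplifier of inflammation, were at least 1.41 and 2.38 higher. The granule genes Elane, Camp, Ngp and Ltf were at background in both groups. Called neutrophil members numbered 7, 5 and 0 without irradiated replicates 1, 2 and 3, and 0 and 1 without unirradiated replicates 1 and 2. The 6 measured B and plasma cell genes were at background in both groups and gave no call by limma, with 0 at an unadjusted p under 0.05. Among 10 mast cell genes, Cma1, the mast cell chymase, was lower at 6.36, 3.20 and 4.83 against 6.60 and 7.02 (-2.01 ± 0.56, adjusted p 0.0247).

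Antigen presentation genes followed the macrophage order of arrays, with replicate 3 the highest irradiated array, as in 88.5% of all features called higher. Of 15 measured, 7 were called higher and none lower (median 1.58). Cd74, the invariant chain of MHC class II, read 15.30, 16.40 and 17.46 against 13.25 and 14.73 (2.40 ± 0.61, adjusted p 0.0145). RT1-Da, the alpha chain of a rat class II molecule, read 13.85, 15.41 and 16.20 against 11.33 and 12.79 (3.09 ± 0.67, adjusted p 0.00437). The class II loading genes RT1-DMb and RT1-DMa were higher by 3.13 and 2.57, and Psmb9, an immunoproteasome subunit, by 1.79. No irradiated array overlapped an unirradiated one in these 5 genes. List means were 9.04, 10.33 and 11.31 against 7.97 and 9.05, so that irradiated replicate 1 overlapped with unirradiated replicate 2. B2m and RT1-A2, of class I, did not pass (1.03 and 0.88). Called antigen presentation members numbered 13, 6 and 2 without irradiated replicates 1, 2 and 3, and 0 and 7 without unirradiated replicates 1 and 2. Macrophage markers, of which 19 of 25 were called with list means of 9.20 to 13.20 against 7.80 to 8.29, moved with these genes, and their part was not tested.

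Complement, a cascade of plasma proteases that tags and lyses targets, had 9 of 12 measured members called higher and none lower (median 1.92). C6, part of the membrane attack complex, read 10.12, 10.58 and 12.74 in irradiated and 7.18 and 7.66 in unirradiated skin (3.73 ± 0.76, adjusted p 0.00275). The initiating protease C1s read 13.08, 14.09 and 15.03 against 11.52 and 12.32 (2.15 ± 0.46, adjusted p 0.00437), and its inhibitor Serping1 was also higher (2.05 ± 0.50). The central component C3 was at least 0.83 higher (adjusted p 0.00661), and C3ar1, the receptor for the fragment C3a, was higher by 3.37. Activators, an inhibitor and receptors therefore all carried calls in 1 direction. Called complement members numbered 10, 8 and 1 without irradiated replicates 1, 2 and 3, and 0 and 9 without unirradiated replicates 1 and 2. C3ar1 and C5ar1 are expressed by myeloid cells, whose markers were higher as given above, and the part of those cells was not tested.

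Cytokines and chemokines gave 6 calls of 31 measured, all higher, with a median of 1.20. Ccl2, the main attractant of monocytes, read 11.06, 12.27 and 16.999 against 9.77 and 10.22 (3.45 ± 1.01, adjusted p 0.0326). Ccl7, which signals through the same receptor, read 7.67, 9.65 and 13.68 against 7.74 and 7.32 (2.80 ± 0.87, adjusted p 0.045). Replicate 3 was far above the rest for both, and for Ccl7 irradiated replicate 1 lay within the unirradiated values. Il6, an inducer of the acute phase, was at least 0.75 higher (adjusted p 0.0462) and rested on replicate 3, which read 10.59 against 4.59 and 5.38 in the other two. Ccl5, an attractant of T cells, was at least 0.62 higher (adjusted p 0.00294), and Il18 was higher by 1.66.

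Il1b, the pyrogenic interleukin, just missed the threshold at 5.44, 6.85 and 11.64 against 5.07 and 5.20 (adjusted p 0.0509), with both unirradiated arrays at background and only replicate 3 far above them. The receptor-blocking Il1rn had a difference of 1.20 and did not pass. Nor did Tnf and the neutrophil attractant Cxcl2, both at background in unirradiated skin and in 2 of 3 irradiated arrays. Called cytokine members numbered 15, 10 and 1 without irradiated replicates 1, 2 and 3, and 0 and 3 without unirradiated replicates 1 and 2.

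NF-kB, the transcription factor of inflammatory signalling, induces its own regulators, and 6 of 13 measured members of that list were called higher and none lower (median 1.22). Icam1, an adhesion molecule for leukocytes, read 7.50, 8.73 and 10.06 against 6.94 and 7.30 (1.65 ± 0.41, adjusted p 0.0114). Bcl3 and Birc3, a co-regulator and an inhibitor of cell death, were higher by 1.56 and 1.52, and the hyaluronan receptor Cd44 by 1.41. Nfkbia, the inhibitor IkB-alpha, did not pass (0.16). Called NF-kB members numbered 10, 4 and 0 without irradiated replicates 1, 2 and 3, and 1 and 2 without unirradiated replicates 1 and 2.

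Enzymes of prostaglandin and leukotriene synthesis had 6 of 16 called higher and none lower (median 1.19). Alox5ap, which presents arachidonic acid to 5-lipoxygenase, read 10.61, 10.74 and 12.73 against 8.58 and 9.27 (2.43 ± 0.55, adjusted p 0.00594), and the lipoxygenase Alox5 was higher by 1.65. Ptges, which makes prostaglandin E2, read 10.28, 11.43 and 11.76 against 8.31 and 10.07 (1.97 ± 0.58, adjusted p 0.0329). Tbxas1, the thromboxane synthase, was at least 1.15 higher, and the secreted phospholipase Pla2g2a at least 2.55 higher. List means were 8.23, 8.77 and 9.36 against 7.31 and 7.69, in the same order of irradiated arrays as the macrophage list (9.20, 10.28 and 13.20 against 7.80 and 8.29, 19 of 25 called), whose part was not tested. Replicate 3 was the highest irradiated array in 88.5% of all features called higher. Ptgs2, the inducible cyclooxygenase, had a difference of 2.67 and did not pass. Called eicosanoid members numbered 7, 4 and 2 without irradiated replicates 1, 2 and 3, and 0 and 4 without unirradiated replicates 1 and 2.

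Interferon signalling through STAT and IRF factors induces antiviral proteins from promoters that hold an interferon-stimulated response element. Of 21 measured interferon-response genes 14 were called higher and none lower, with a median of 2.09. Promoter windows (250 bases before to 50 after the gene start, RefSeq, build GRCr8) were searched on both strands for the element as GAAANNGAAA. It was found in 11 of the 16 measured members that have a window (68.8%), 8 of them among the 10 called members with a window, and in 3.49% of all array symbols with one. Uncalled members with the element were Ifi44, Ifit3 and Rsad2. Among genes called higher in irradiated skin 9.92% of 605 windows held it, and among genes called lower 1.89% of 318. The stretches of 3 called genes around the element are shown so that it can be read beside their values. Its letters stand in capitals, as TTTCNNTTTC on the gene's strand. They come from chr2:234005666-234005726 (plus strand) for Gbp2, chr12:47383297-47383366 (minus strand) for Oasl2 and chr1:205800053-205800122 (minus strand) for Irf7.
Gbp2: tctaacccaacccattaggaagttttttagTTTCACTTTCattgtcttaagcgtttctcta
Oasl2: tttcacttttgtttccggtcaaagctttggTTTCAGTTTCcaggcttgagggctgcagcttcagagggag
Irf7: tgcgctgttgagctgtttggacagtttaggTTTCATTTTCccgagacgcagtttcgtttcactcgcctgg

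The first base of the element lies at position -31 from the start in Gbp2, -151 in Oasl2 and -69 in Irf7. A match describes the letters only. Gbp2, an interferon-induced GTPase, read 10.47, 11.49 and 12.60 in irradiated and 8.57 and 8.76 in unirradiated skin (2.85 ± 0.53, adjusted p 0.00113), with no overlap. Oasl2, a member of the oligoadenylate synthetase family, read 7.43, 6.62 and 10.96 with both unirradiated arrays at background, and was at least 2.23 higher (adjusted p 0.0165). Irf7, the master regulator of type I interferon, read 6.93, 8.21 and 10.96 against 6.27 and 6.06 (2.54 ± 0.76, adjusted p 0.0356). Mx1 and Mx2, antiviral GTPases, were at least 2.78 and 2.31 higher (adjusted p 0.0177 and 0.0202).

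Replicate 3 was the highest array for all 5. Usp18, Ifit2, Bst2, Oas1a and Irf1 were called with differences from 1.995 to 2.48, and Isg15 was called with only irradiated replicate 3 above background. Ifit1 was at background in both groups, and Rsad2, Ifit3 and Stat2 did not pass (adjusted p 0.0717, 0.397 and 0.43). Interferon list means were 7.45, 7.99 and 10.31 against 6.54 and 6.66, and 6.45 to 6.89 at baseline. Called interferon members numbered 17, 16 and 2 without irradiated replicates 1, 2 and 3, and 0 and 5 without unirradiated replicates 1 and 2. Eif2ak2, a kinase that senses double-stranded RNA, Trim25, a ubiquitin ligase of RNA sensing, and Ifitm1, a membrane protein that blocks viral entry, were chosen after their values were seen. They were higher by 2.10, 1.59 and 3.63 and were called in each fit that left out 1 array. On day 7, 1 interferon list member was called higher (2.69% of all features were), and the list median was 0.72. List means of that day were 7.67, 7.79 and 8.73 in irradiated and 7.93 and 6.72 in unirradiated arrays, so the groups overlapped. Irradiated replicates 1 and 2 were thus at similar levels on both days, while unirradiated replicate 1 was higher on day 7. No member passed the test of the difference between the days. The macrophage list means of day 14, 9.20, 10.28 and 13.20 against 7.80 and 8.29, had the same order of irradiated arrays, and their part in the interferon result was not tested. Most features called higher on day 14 had replicate 3 highest (88.5%).

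Matrix proteases break down collagen, elastin and basement membrane and release growth factors. Of 24 measured proteases and inhibitors 7 were called higher and 1 lower (median 1.35). Promoter windows were searched on both strands for an AP-1 site as TGANTCA and a TATA box as TATAAA. Of 17 measured members with a window, 6 held the AP-1 letters and 7 the TATA letters. Mmp12, Mmp3 and Mmp13, 3 of the 4 called-higher members with a window, held both, and so did Mmp1 and Mmp10, which were not called. The AP-1 letters occur in 6.62% of windows of array symbols and the TATA letters in 12%. Among all genes called higher the shares were 10.9% and 12.7%. The stretches that hold both elements, given in capitals, are printed for these 3 because they were called higher and held both. They lie at chr8:12866535-12866648 (plus strand) (Mmp12), chr8:12925180-12925280 (plus strand) (Mmp3) and chr8:12782733-12782817 (plus strand) (Mmp13) in RefSeq GRCr8.
Mmp12: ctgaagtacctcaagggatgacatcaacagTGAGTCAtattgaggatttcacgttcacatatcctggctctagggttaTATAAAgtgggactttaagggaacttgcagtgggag
Mmp3: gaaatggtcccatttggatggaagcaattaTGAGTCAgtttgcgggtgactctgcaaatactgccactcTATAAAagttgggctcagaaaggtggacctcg
Mmp13: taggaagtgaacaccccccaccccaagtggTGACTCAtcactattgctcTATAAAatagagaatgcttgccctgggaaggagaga

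AP-1 letters begin at -87, -71 and -66 from the start and TATA letters at -39, -32 and -47, in the order given, and all 3 genes lie together on chromosome 8. Mmp12, the elastase of macrophages, read 5.57, 10.63 and 15.81 in irradiated skin with both unirradiated arrays at background, and was at least 4.57 higher (adjusted p 0.0063). Mmp3, stromelysin 1, read 7.995, 11.62 and 16.09 against 6.89 and 6.90 (5.01 ± 1.24, adjusted p 0.0114). Mmp13, the interstitial collagenase of rodents, was at least 2.47 higher (adjusted p 0.00423). All 3 were near unirradiated levels in irradiated replicate 1, intermediate in replicate 2 and highest in replicate 3, which is the order of the macrophage list means, whose part was not tested. Among the 1027 features called higher, replicate 3 was highest in 909 and replicate 1 lowest in 890, so this order is not particular to these genes.

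The gelatinase Mmp9 was at least 2.81 higher (adjusted p 0.0126), Mmp19 was higher by 2.65 and the other gelatinase Mmp2 by 2.12. Among the inhibitors, Timp1 read 9.88, 11.77 and 16.15 against 8.73 and 8.55 (3.96 ± 0.93, adjusted p 0.00793), whereas Timp3 was lower (-2.23 ± 0.47, adjusted p 0.00386). The membrane protease Mmp14 and the urokinase Plau did not pass (0.58 and 1.60). Called protease members numbered 15, 13 and 1 without irradiated replicates 1, 2 and 3, and 0 and 4 without unirradiated replicates 1 and 2.

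Matrix genes of healing wounds gave 5 calls of 18, all higher. Spp1, osteopontin, read 4.53, 6.67 and 11.66 and was at least 1.52 higher than unirradiated skin at background (adjusted p 0.0345), with irradiated replicate 1 at background as well. Tnc, tenascin C, read 10.92, 12.72 and 16.42 against 11.18 and 9.95 (2.79 ± 0.86, adjusted p 0.0416), and irradiated replicate 1 overlapped with unirradiated replicate 1. Cthrc1, a secreted protein of activated fibroblasts, read 8.88, 10.60 and 11.96 against 7.39 and 8.01 (2.78 ± 0.70, adjusted p 0.0133), and Tgfbi, a TGF-beta-induced adhesion protein, was higher by 1.94. Postn, Acta2 and Ccn2, markers of myofibroblasts and fibrosis, did not pass (-0.26, -0.33 and -1.15). Called wound matrix members numbered 7, 5 and 0 without irradiated replicates 1, 2 and 3, and 0 and 3 without unirradiated replicates 1 and 2.

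Fibrillar collagens were high in both groups. Col1a1 read 19.14, 18.95 and 18.72 in irradiated and 18.57 and 19.08 in unirradiated skin (0.11 ± 0.32, adjusted p 0.93), so that the groups overlapped, and Col1a2 and Col3a1 had differences of 0.15 and 0.027. At values near 19 the scale is close to its top, which limits what a rise could show. Of 21 measured fibroblast genes, Lum and P4ha1 were called. Lum, the collagen-binding proteoglycan lumican, read 14.30, 15.08 and 16.76 against 12.16 and 12.32 (3.14 ± 0.69, adjusted p 0.00504), and P4ha1, a collagen prolyl hydroxylase, was higher by 1.17. Called fibroblast members numbered 6, 2 and 0 without irradiated replicates 1, 2 and 3, and 0 and 3 without unirradiated replicates 1 and 2.

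In the TGF-beta superfamily, ligands moved in opposite directions, with 3 of 18 measured members called higher and 4 lower. Tgfb1 read 10.88, 12.20 and 14.05 in irradiated skin and 10.05 and 10.32 in unirradiated skin (2.19 ± 0.49, adjusted p 0.00571). Inhba, the activin A subunit, read 10.04, 10.34 and 11.31 against 7.96 and 8.28 (2.44 ± 0.59, adjusted p 0.0101). Every irradiated array exceeded both unirradiated ones for these ligands. Inhbb, another activin subunit, was higher too (1.02 ± 0.32). Tgfb2 and Tgfb3 did not pass (-0.16 and -0.18).

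Bmp2 and Bmp4, ligands of the BMP branch that acts in hair differentiation, were lower. Bmp2 read 7.10, 5.17 and 5.22 against 9.46 and 8.83 (-3.32 ± 0.57, adjusted p 0.000656), and Bmp4 10.82, 7.45 and 5.76 against 12.47 and 10.70 (-3.58 ± 0.88, adjusted p 0.0107). The pseudoreceptor Bambi and Smad6, which blocks BMP signals inside the cell, were lower as well, at -4.48 ± 1.20 and -1.59 ± 0.47 (adjusted p 0.0193 and 0.0331). Irradiated replicate 1 of Bmp4 lay between both unirradiated arrays. Hair shaft transcripts, of which 9 of 16 were called lower with list means of 5.11 to 12.10 against 12.75 to 15.96, moved with the BMP genes, and their part was not tested. Called TGF-beta pathway members numbered 8, 4 and 1 without irradiated replicates 1, 2 and 3, and 0 and 7 without unirradiated replicates 1 and 2.

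Among 28 measured p53 targets 4 were called higher and none lower (median 0.39). Abcb1b, which codes for the drug efflux pump P-glycoprotein, had the smallest adjusted p of all features. It read 10.61, 11.03 and 12.36 in irradiated and 6.48 and 5.70 in unirradiated skin (5.24 ± 0.44, adjusted p 3.19e-09). The spread among the irradiated rats was small against the gap, and the gene was called whichever array was left out, with adjusted p up to 1.11e-05. Mdm2, the ubiquitin ligase that limits p53, read 11.32, 11.49 and 12.33 against 10.62 and 10.51 (1.15 ± 0.32, adjusted p 0.0253), and the cell death gene Bax was higher by 0.996. Pltp, a phospholipid transfer protein that macrophages also express, was higher by 2.57.

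Cdkn1a, the p21 inhibitor of the cell cycle, did not pass on day 14. It read 13.32, 12.77 and 14.04 against 14.22 and 12.25 (0.15 ± 0.49, adjusted p 0.94), with unirradiated replicate 1 the highest array. On day 7 the same gene had been called higher at 14.50, 13.60 and 14.31 against 10.89 and 12.06 (2.66 ± 0.49, adjusted p 0.00188). The change between the days did not pass (-2.52 ± 0.70, adjusted p 0.228). On day 7, 7 of the 28 measured p53 targets were called higher (2.69% of all features were, against 4.43% on day 14). Called p53 members of day 14 numbered 4, 4 and 1 without irradiated replicates 1, 2 and 3, and 1 and 2 without unirradiated replicates 1 and 2.

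No cell division gene was called among 21 measured, with 0 at an unadjusted limma p under 0.05 and a median of -0.43. Mki67, a marker of cycling cells, read 13.41, 12.53 and 12.53 against 13.87 and 13.67 (-0.95 ± 0.82, adjusted p 0.629). Its irradiated arrays were all lower, but the difference did not pass. DNA replication genes likewise gave no limma call among 21 (0 at an unadjusted p under 0.05, median -0.24). Among 18 repair genes only Atm, the kinase that senses double-strand breaks, was called higher (0.98 ± 0.31, adjusted p 0.0462), where 4.43% of all features were. Atm was not called without irradiated replicate 2 or 3 (limma adjusted p 0.0636 and 0.477).

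NADPH oxidase produces superoxide in phagocytes, and 4 of its subunits were called higher. Beside Cybb, which is also on the macrophage list, the cytosolic subunit Ncf1 read 7.16, 9.40 and 12.78 against 6.13 and 6.88 (3.28 ± 0.72, adjusted p 0.00514), the membrane partner Cyba was higher by 2.68, and Ncf4 was at least 1.60 higher. The epithelial oxidase Duox1 was higher by 1.59 and the lysosomal galactosidase Glb1 by 1.84. The senescence genes Cdkn2a and Cdkn2b did not pass, with Cdkn2a at background in every array and Cdkn2b at 0.58. Together 6 of the 18 measured members of that list were called higher. Ncf1 had the same order of irradiated arrays as the macrophage list means (9.20, 10.28 and 13.20), whose part was not tested. As stated, replicate 3 was highest in 88.5% of all features called higher. Called oxidase and senescence members numbered 7, 4 and 1 without irradiated replicates 1, 2 and 3, and 1 and 4 without unirradiated replicates 1 and 2.

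NRF2, the factor that induces antioxidant and detoxifying enzymes, has 36 measured targets here, of which 6 were called higher and 2 lower (median 0.20). Hmox1, which breaks down haem, read 11.75, 13.04 and 14.58 against 10.53 and 9.52 (3.10 ± 0.64, adjusted p 0.00294). Nqo1, a quinone reductase, read 10.39, 12.36 and 11.27 against 10.02 and 7.89 (2.38 ± 0.67, adjusted p 0.0256), and the aldo-keto reductase Akr1b8 was higher by 2.66. For Hmox1 and Nqo1 the arrays did not overlap, although irradiated and unirradiated replicate 1 of Nqo1 were close. Both ferritin chains Ftl1 and Fth1 (1.46 and 1.26) and the peroxiredoxin Prdx1 (0.99) were also called higher.

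Gclm, a subunit of the rate-limiting enzyme of glutathione synthesis, was lower at 9.52, 8.80 and 8.87 against 11.32 and 10.24 (-1.72 ± 0.41, adjusted p 0.00849). Me1, the malic enzyme that supplies NADPH, was lower (-2.05 ± 0.49), while Gclc, the catalytic subunit beside Gclm, and Txnrd1, a thioredoxin reductase, did not pass (-1.20 and -0.86). The list thus held calls in both directions. Called NRF2 members numbered 8, 6 and 1 without irradiated replicates 1, 2 and 3, and 3 and 3 without unirradiated replicates 1 and 2.

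Other pathways gave fewer calls, where 4.43% of all features were called higher and 2.53% lower. Slc2a1, the glucose transporter GLUT1, read 12.27, 14.47 and 14.57 against 11.01 and 11.55 (2.49 ± 0.52, adjusted p 0.00372), and it and the glycolytic enzyme Eno1 (0.92 ± 0.29) were the calls among 21 hypoxia and glycolysis genes. The chaperones of the endoplasmic reticulum, Pdia6, Sdf2l1 and Calr, were higher by 0.91, 0.83 and 0.81 among 19 genes of the unfolded protein response. The growth-factor-induced regulators Egr2 and Egr3 were lower among 20 immediate early genes, at 10.45, 8.49 and 7.07 against 10.91 and 10.69 for Egr2 (-2.13 ± 0.55, adjusted p 0.0155) and -2.61 ± 0.65 for Egr3. Erbb2, a receptor of the EGF family, was lower (-1.27 ± 0.33).

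The clock repressors Per1, Per2 and Cry1 were lower among 15 clock genes. Per2 read 7.10, 6.39 and 7.38 against 8.72 and 7.70 (-1.25 ± 0.32, adjusted p 0.0146), Per1 was lower too (-1.54 ± 0.47), and Cry1, with every irradiated array at background, fell by at least 0.31. The hour of biopsy is not given in the labels. Bmal1 and Dbp did not pass (0.73 and 0.085). Called clock members numbered 3, 1 and 2 without irradiated replicates 1, 2 and 3, and 0 and 2 without unirradiated replicates 1 and 2.

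Kdr, the VEGF receptor of vessels, was the sole call among 18 endothelial and pericyte genes (1.29 ± 0.34, adjusted p 0.0166), while Pecam1 and Cdh5 had differences of 0.20 and -0.014. Over all features 4.43% were called higher. Mitf, a regulator of pigment cells, was lower (-1.31 ± 0.38), but 6 of the 7 measured melanocyte genes, Tyr and Tyrp1 among them, were at background in both groups. Cnp, an enzyme of myelinating cells, was the sole call of 8 nerve genes (1.97 ± 0.51). Limma called no member of the skeletal muscle, muscle regeneration, oxidative phosphorylation or red blood cell lists. At an unadjusted p under 0.05 they had 0, 0, 3 and 0 members. Myh2, a fast myosin heavy chain, ranged from 7.68 to 14.82 over the 5 arrays, both extremes in unirradiated skin.

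**Figure D5:**
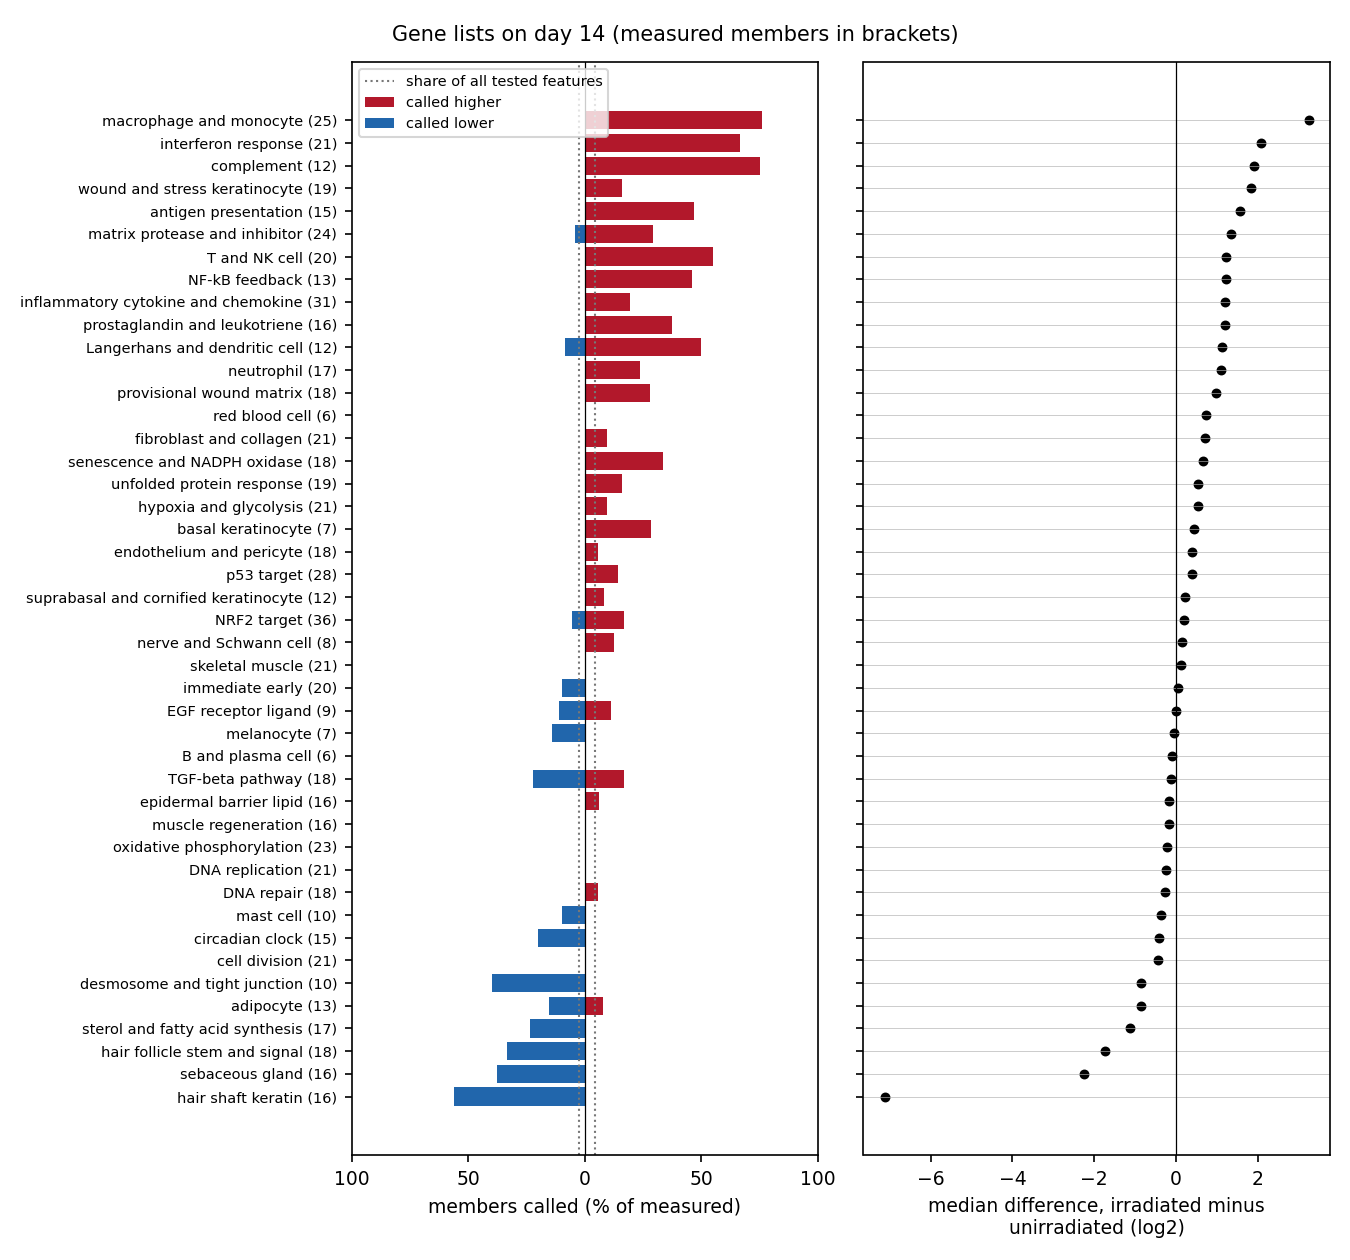
Share of measured members called higher (red, to the right) or lower (blue, to the left) in irradiated skin on day 14 for 44 gene lists (left panel, percent, with dotted lines at the shares of all tested features, 4.43% and 2.53%) and the median difference of each list (right panel, log2 units). Lists are ordered by median, from hair shaft keratin at -7.13 to macrophage and monocyte at 3.24.

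Of the 75 features that were called whichever array was left out, some have not yet been named. They were chosen after their values were seen. Higher were Rbp2, a carrier of retinol (12.13, 14.73 and 13.43 against 10.09 and 10.09, 3.34 ± 0.60), the lymph node chemokine Ccl21 (10.43, 10.40 and 9.64 against 7.35 and 6.99, 2.99 ± 0.57), the serotonin receptor Htr1b (3.34 ± 0.49) and the apoptosis inhibitor Bcl2a1 (3.37 ± 0.58). Ccl21 differed from most higher genes in that irradiated replicates 1 and 2 were above replicate 3. Lower were Il31ra, the receptor chain for the itch cytokine IL-31, Fzd7, a Wnt receptor, the non-muscle myosin Myh14 and Phyhip. Il31ra read 8.32 and 7.16 in unirradiated skin and was at background in all irradiated arrays, so that it fell by at least 1.60 (adjusted p 0.000379). Myh14 read 7.98, 7.13 and 6.34 against 10.59 and 9.93 (-3.11 ± 0.43, adjusted p 0.000165), and Fzd7 9.24, 7.11 and 7.23 against 10.10 and 10.63 (-2.51 ± 0.46, adjusted p 0.00108). Phyhip covered a wide range of 9.98, 7.41 and 4.85 in irradiated skin, against 11.55 and 11.73 (-4.22 ± 0.81, adjusted p 0.00155).

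Rats with their own baseline array allow each change to be read within an animal, as a description without a test. Abcb1b was at background in the baseline arrays of all 3 such rats (5.39 in rat 322, 5.71 in rat 321 and 5.40 in rat 319). On day 14 it read 10.61 and 11.03 in irradiated rats 322 and 321 and 6.48 in unirradiated rat 319. Gpr15lg, also at background in all 3 baselines, read 11.41 and 14.01 in the irradiated rats and stayed at background (4.93) in the unirradiated one. Cd163, which was above background at baseline, changed by 3.04 and 4.61 in the irradiated rats and by -0.32 in the unirradiated one. Krt86 changed by -5.83 and -8.93 against 0.42, so that for both genes the irradiated rats moved further. Nqo1 increased also in the unirradiated rat (2.00, against 3.24 and 4.92). The sebaceous gene Awat2 rose in irradiated rat 322 by 2.44 and in unirradiated rat 319 by 1.67, and changed by -5.29 in irradiated rat 321. Elovl3 changed by -0.49 and -5.27 in irradiated rats 322 and 321 and by 2.14 in unirradiated rat 319. For both, the day 14 difference thus also holds a rise in the unirradiated rat. Baseline arrays are all in spike-in set I and no day 14 array is, so set and time cannot be told apart in these values.

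Day 7 is the comparison most like this one, since it takes the same 5 rats. On that day 623 features were called higher and 309 lower (932 in all), and 282 were called on both days with the same sign, which is 17.5% of the day 14 calls and 30.3% of the day 7 calls. Abcb1b gave a day 7 difference of 5.49 ± 0.44, beside 5.24 ± 0.44 on day 14. Gpr15lg was at background in unirradiated skin on both days and read 13.21, 14.60 and 14.88 in irradiated skin on day 7. In the test of the difference between both days, 2 features passed (0.00863% of those tested) and 2382 had an unadjusted p under 0.05.

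Lix1 was one of them. Its radiation effect was -1.60 on day 7 and 0.33 on day 14, a difference of 1.93 ± 0.27 (adjusted p 0.000291). The day 14 values were 4.33, 4.09 and 4.09 and 3.82 and 3.87, all at background, and the day 7 values were 3.80, 3.79 and 3.98 and 5.47 and 5.44, so that no array lay above background on either day. The other feature has no gene symbol and read 8.98, 9.54 and 8.77 and 10.93 and 9.17 on day 14, but 13.72, 12.35 and 13.79 and 7.98 and 7.49 on day 7. Its effect of 5.55 ± 0.61 on day 7 and -0.95 ± 0.61 on day 14 gave a difference of -6.51 ± 0.86 (adjusted p 0.000212). With the rat as a fixed block neither passed.

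Fewer than 10 features passed in either direction, so the genes with the smallest unadjusted p are given, none of which passed. More positive on day 14 than on day 7 were Heca (1.64 ± 0.35, adjusted p 0.0963), the signalling regulator Rgs10 (2.12 ± 0.48, adjusted p 0.122) and the lipoprotein gene Apoe (1.81 ± 0.45, adjusted p 0.192). Rgs10 read 10.88, 11.64 and 12.15 against 9.35 and 9.70 on day 14 and 10.84, 10.89 and 10.11 against 10.75 and 10.66 on day 7. Groups were apart on the later day and overlapped on the earlier. More negative were Iffo2 (-2.60 ± 0.52, adjusted p 0.0878), the ribosome biogenesis genes Nifk (-1.57 ± 0.32, adjusted p 0.0878) and Bop1 (-1.57 ± 0.36), the phenylalanine tRNA synthetase chain Farsb (-1.72 ± 0.37), the BMP target Id1 (-1.93 ± 0.42, adjusted p 0.105) and the retinoic acid enzyme Aldh1a3 (-6.38 ± 1.43, adjusted p 0.122). Id1 was above unirradiated skin on day 7 (13.60, 14.04 and 14.06 against 13.11 and 12.62) and below it on day 14 (12.88, 12.47 and 12.37 against 13.69 and 13.25). The hair shaft list, whose median difference was -0.77 on day 7 and -7.13 on day 14, is represented by Krt86, whose change between the days was -8.20 ± 2.95 and did not pass (adjusted p 0.344).

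Close to the threshold, Sp140 (1.29 ± 0.41, adjusted p 0.0498) and Ifgga2l1 (2.22 ± 0.71, adjusted p 0.0498) were just inside. Cxcl10, an interferon-induced chemokine (2.10 ± 0.67, adjusted p 0.05), and Arid3c, at background in every array (adjusted p 0.0501), were just outside. Cxcl10 read 7.16, 7.71 and 9.995 against 6.49 and 5.89, so that its groups were apart although the test did not pass.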

How the data were processed

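Biotin-labelled cDNA from frozen abdominal skin (100 ng RNA, mean RIN 7.15, per the labels' protocols) was hybridised to rat Clariom S arrays. The values used are the authors' deposited log2 table of 24834 features by 46 arrays; how those values were normalized is not stated in the labels or the table used here. No scanner files were used. Arrays have no read depth, and their number limits the precision. The 1646 control features were left out, leaving 23188, and names came from the platform annotation for the 15049 with 1 symbol.

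Differences were fitted with limma 3.58.1 in R 4.3.3 (lmFit and eBayes, a mean for each group of treatment and day, 30 residual degrees of freedom) and adjusted by Benjamini-Hochberg over all features, with calls at an adjusted p under 0.05. The day 7 and day 14 minus day 7 contrasts came from the same fit. The script was tested on simulated data.

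Genes named are the 15 highest and 15 lowest called features with 1 symbol and no overlap, and up to 5 called per list. A fixed panel, genes with the smallest p between days and 2 on each side of the threshold were added. Further list members, called or not, are examples that no stated rule picked. Other genes are said to be chosen after their values were seen. The members and lists were chosen with earlier results of these data known. Same-rat deviations on days 7 and 14 correlated at 0.320, 0.032, 0.455 and 0.222, so rat was tried as a block. Alternatives also covered quantile normalization, a filter on dim features, array weights, sets inferred from spike-in controls, a stricter threshold and each array left out. Promoter windows are RefSeq's.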

Additional observations from a re-analysis of the deposited data

Results flagged for a closer look

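Among the 6 baseline arrays, that of rat 321 (baseline replicate 4, later irradiated replicate 2) stood apart in hair. Its hair shaft list mean was 11.40, against 14.76 to 15.85 in the other baseline arrays, and its follicle list mean was 8.96, against 9.99 to 10.32. Rat 323 (baseline replicate 2) had a skeletal muscle list mean of 6.16, against 16.04 to 17.33. Each of these was an array whose gap to its nearest neighbour was large for a group of 6, and chance flags about 1 in 20 groups by that rule. The causes were not tested.

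The radiation effect differed between days 14 and 7 in 2 features by the test of the difference itself. Lix1 changed by 1.93 (limma adjusted p 0.000291), with every array of both groups at background on both days. The feature TC1400001501.rn.2, which has no gene symbol, changed by -6.51 (limma adjusted p 0.000212), and its irradiated arrays were high on day 7 only.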

How the results depend on the processing

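The day 14 comparison gave 1614 calls over all 46 arrays. The count was 1589 after quantile normalization, 1698 without the dimmest 25.0% of features, 1365 with array weights, 1630 with rat as a random block, 1327 with a replicate block, 1973 with spike-in set as a block and 1623 within set III. It was 512 at an adjusted p under 0.01. On the 5 arrays alone limma made 0 calls (1517 at an unadjusted p under 0.05). That fit uses only the spread of these rats, with fewer arrays to estimate it. Leaving out 1 array gave 98 (without unirradiated replicate 1) to 2962 calls (without irradiated replicate 1), and 97 of the 98 were among the 1614 with the same sign.

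The difference between days 14 and 7 gave 2 calls. It gave 1 without the dimmest 25.0% of features, 1 within set III, 5 with array weights, 2 with the replicate block, 0 with rat as a fixed block (limma, 1675 at an unadjusted p under 0.05) and 0 on the compared groups alone (1391). Leaving out 1 array gave 2 to 164 calls, the highest without irradiated replicate 1 of day 14, and both features were called in each of those fits. Among 150 called genes picked by the naming rules, none changed sign in any alternative run of the day 14 comparison. The signs of the other called features were not checked. List medians changed sign in 8 of 44 lists without unirradiated replicate 1, 5 without replicate 2, 4 without irradiated replicate 3 and 4 with the replicate block. The basal keratinocyte median went from 0.434 to -0.023 without unirradiated replicate 1. With 1 unirradiated array left, that array is assumed to vary like the other groups. Values near the top of the scale or at background limit what a difference can show.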
